A study of Mus musculus with 3 samples.

Results

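Nrf2 binding near 4 genes of the thioredoxin and peroxiredoxin system was examined in a ChIP-seq experiment on mouse embryonic fibroblasts that lack Keap1. The genes were Txnrd1, Srxn1, Prdx1 and Txn1. Each was given a window of the mm9 genome that held the gene and about 50 kb on each side. A region of the deposited list belonged to a gene when its highest position lay inside that window. This gave 5 of the 1256 regions of the list, and all 4 genes had at least 1. Txnrd1 had 2 regions, and Srxn1, Prdx1 and Txn1 had 1 each.

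The series comprised 3 libraries from Keap1-/- fibroblasts, labelled as strain CD-1 with a stage of 8 to 10 weeks. Of these libraries, 1 was precipitated with a rabbit monoclonal antibody to Nrf2, 1 with a rabbit polyclonal antibody to Nrf2, and 1 was a control. For the control the sample label names an anti-rabbit IgG antibody, whereas the design text names input DNA. All groups carried the Keap1 deletion and none was treated. Keap1 is the adaptor that marks Nrf2 for degradation, so in general Nrf2 escapes this route in cells without Keap1. The level of Nrf2 in these cells is not among the data. Cells with normal Keap1 or without Nrf2 were not among the samples. The labels do not say whether the fibroblasts were 1 clone or a mixed culture.

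The file was a single list of regions with no value for any library. Each height below is therefore 1 value for the whole series, with no replicate, no error and no test. The depth of the libraries, the unit of the height and its correction for the control are unknown, so heights were compared only between regions of this list. Over the list, heights ran from 5 to 122.128 with a median of 10.1.

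Thioredoxin is a small protein that reduces disulfide bonds in other proteins, and thioredoxin reductase restores it with electrons from NADPH. Peroxiredoxins are abundant peroxidases that remove hydrogen peroxide and are recycled by thioredoxin. When peroxide is high the catalytic cysteine of a peroxiredoxin can be overoxidised to a sulfinic acid, which sulfiredoxin reverses. Nrf2 pairs with small Maf proteins to bind antioxidant response elements, and genes of this cycle are textbook Nrf2 targets.

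The promoters of the 4 genes are shown because they hold, or lack, the letters of that element. They come from RefSeq on GRCm38.p6, a later build than that of the list, so their positions cannot be set against the mm9 positions below. Whether any listed region covers any of these promoters was not tested. Each line gives the 250 bases before a start site, 5′ to 3′ in the direction of transcription. In Prdx1 the capitals mark the complement of TGACTCAGC, called the extended form of the element below. It is as long as the element's core, TGACNNNGC, and only fixes the open letters as TCA. In Txnrd1 the capitals mark the complement of a match to that core. In Srxn1 they mark the heptamer TGANTCA, the binding motif of AP-1 factors and part of the Maf recognition element. Txn1 held none of these motifs and has no capitals.
Prdx1, chr4:116685349-116685598, plus strand: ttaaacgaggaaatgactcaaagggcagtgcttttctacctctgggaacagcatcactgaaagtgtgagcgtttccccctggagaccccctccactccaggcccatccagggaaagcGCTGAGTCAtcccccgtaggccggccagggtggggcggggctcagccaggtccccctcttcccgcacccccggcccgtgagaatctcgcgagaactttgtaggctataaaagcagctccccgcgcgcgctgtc
Srxn1, chr2:152105274-152105523, plus strand: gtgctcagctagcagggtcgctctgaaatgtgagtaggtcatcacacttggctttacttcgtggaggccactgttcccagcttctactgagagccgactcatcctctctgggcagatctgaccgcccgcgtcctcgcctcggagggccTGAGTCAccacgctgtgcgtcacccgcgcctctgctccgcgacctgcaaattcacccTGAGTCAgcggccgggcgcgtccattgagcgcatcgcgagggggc
Txnrd1, the second of 3 starts, chr10:82858956-82859205, plus strand: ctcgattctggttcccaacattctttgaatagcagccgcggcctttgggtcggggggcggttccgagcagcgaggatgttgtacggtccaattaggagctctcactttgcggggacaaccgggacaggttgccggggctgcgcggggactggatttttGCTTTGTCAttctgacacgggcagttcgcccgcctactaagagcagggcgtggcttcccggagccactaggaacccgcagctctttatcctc
Txn1, chr4:57956412-57956661, minus strand: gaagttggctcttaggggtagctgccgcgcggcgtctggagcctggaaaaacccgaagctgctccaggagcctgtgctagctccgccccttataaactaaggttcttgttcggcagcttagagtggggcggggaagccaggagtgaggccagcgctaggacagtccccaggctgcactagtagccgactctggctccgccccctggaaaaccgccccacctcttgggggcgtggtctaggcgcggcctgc

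Thioredoxin reductase, encoded by Txnrd1, had the tallest regions of the 4 genes. Txnrd1 is a selenoprotein that passes electrons from NADPH to thioredoxin in the cytosol. Its first region lay on chromosome 10 from 82276850 to 82277196, with its highest position at 82277014 and a height of 39.303. That height ranked 16 of 1256, and 1.27% of listed regions were at least as tall. The second region, from 82321686 to 82322042 with its highest position at 82321876, had a height of 30.079. It ranked 40, with 3.18% of regions at least as tall. On chromosome 10 the pair ranked 2 and 4 of 122 regions.

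The Txnrd1 regions were 44.9 kb apart, each the nearest listed region to the other. Counting back the 50 kb flanks, the gene spans about 82.29 to 82.36 Mb and is read on the plus strand. The taller region then lay about 13 kb upstream of the gene's start and the lower one about 32 kb inside the gene, both measured from its first start. The windows are stated in steps of 10 kb, so these distances are uncertain by about that much. RefSeq holds 3 starts for Txnrd1, and on GRCm38.p6 the second and the third lie 25.3 and 26.4 kb after the first. If this spacing is alike in mm9, the inner region lay nearer to the later starts than to the first, within the uncertainty of 10 kb. Its distance to them was not computed across builds, and exon or intron was not analysed here.

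Pairs as tall as this were few in the list. Where 5 or more regions followed each other at gaps of 20 kb or less, they were set apart as dense stretches. These held 121 regions and none of the 5 described here. Of the 1135 remaining regions, 227 had another region within 50 kb. Only 31 regions outside dense stretches were at least as tall as the lower Txnrd1 region. Among these 31, neighbours between 1 and 50 kb apart formed 2 pairs, that of Txnrd1 and one on chromosome 15. The latter had its highest positions at 74916138 and 74917217, close to the lower limit of 1 kb. Its heights were 54.502 and 87.181, both above those at Txnrd1.

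Thioredoxin itself, encoded by Txn1, had the next tallest region. It lay on chromosome 4 from 57969607 to 57969932, with its highest position at 57969772 and a height of 27.501. It ranked 45 in the whole list and 4 of 44 on its chromosome, and 3.58% of listed regions were at least as tall. Txn1 is read on the minus strand, and its start is at about 57.97 Mb by the window. The region thus lay at the start within the 10 kb that the window resolves. Whether the region covers the promoter printed above for Txn1 was not tested. That promoter held neither the core element nor the heptamer in its 300 bases (250 before and 50 after the start). A motif outside that short window would not have been seen.

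Prdx1 encodes a cytosolic peroxiredoxin that is itself recycled by thioredoxin. Its region lay on chromosome 4 from 116355579 to 116356023, with its highest position at 116355763 and a height of 19.293. It ranked 116 of 1256 and 5 of 44 on chromosome 4, and 9.24% of listed regions were at least as tall. By the window, the gene starts at about 116.36 Mb on the plus strand, which put the region about 4 kb upstream, within the uncertainty of 10 kb.

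Srxn1 encodes sulfiredoxin, the repair enzyme of overoxidised peroxiredoxins, and had the lowest of the 5 regions. The region lay on chromosome 2 from 151930947 to 151931271, with its highest position at 151931105 and a height of 12.91. It ranked 347 of 1256, so that 27.6% of listed regions were at least as tall, and 24 of 74 on chromosome 2. Its highest position was about 1 kb inside the gene's start at about 151.93 Mb on the plus strand, again within the 10 kb of uncertainty.

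**Figure D1:**
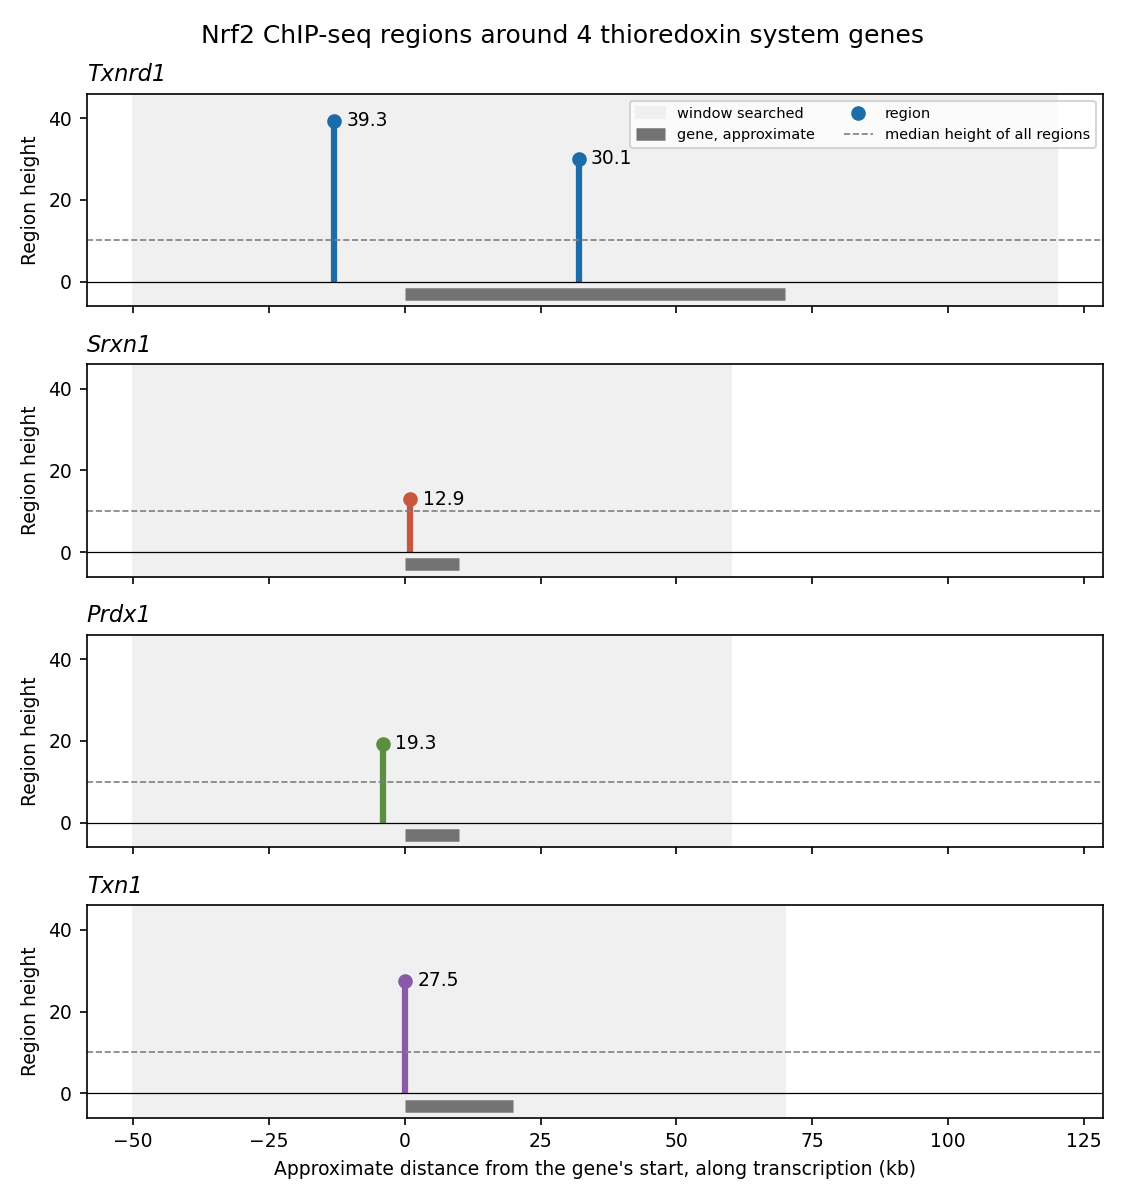
Regions in the windows of the 4 genes. The horizontal axis is the approximate distance from each gene's start in kb, and the vertical axis is the deposited height, whose unit is not stated. Grey bars show the approximate gene, shading the window, stems the regions and the dashed line the list's median of 10.1. Txn1, Prdx1 and Srxn1 each have 1 region close to the start, and the Txnrd1 regions lie about 13 kb upstream of and 32 kb after the first of its 3 starts. All of these distances are uncertain by about 10 kb.

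All 5 regions were taller than the list's median of 10.1, and 4 of them exceeded its upper quartile of 13.6. The exception was the Srxn1 region. Ordered by height, the genes ran from the reductase through thioredoxin and the peroxidase to the repair enzyme. With 1 value per region, no difference between neighbours in this order was tested.

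**Figure D2:**
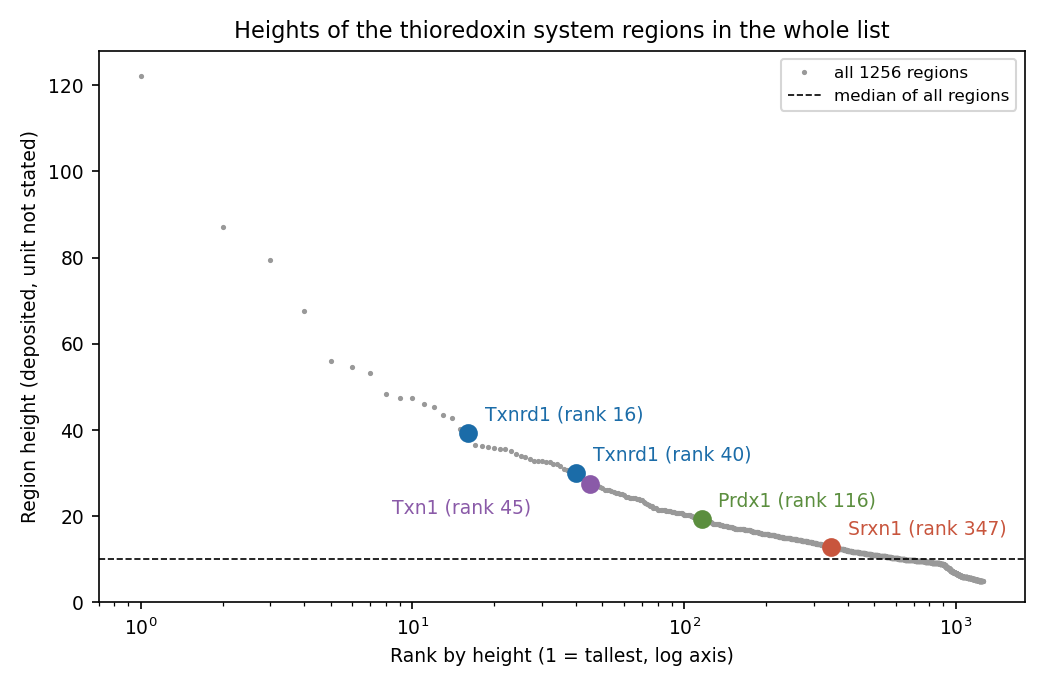
Height of every region against its rank, with rank on a log axis and height in the deposited unit. Grey points are the 1256 regions and coloured points the 5 regions of the 4 genes, which range from 39.3 at rank 16 to 12.9 at rank 347.

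In width, 4 of the 5 regions lay between the quartiles of the list. The widths were 346 and 356 bp at Txnrd1, 325 bp at Txn1, 324 bp at Srxn1 and 444 bp at Prdx1, against a median of 345 bp and quartiles of 306 and 389 bp over all regions. The Prdx1 region was thus wider than the upper quartile. Its highest position was also the farthest from the middle, at 8.56% of its width. The other 4 peaked between 0.769% and 3.37% of their width from the middle, below the list's median of 5.14% (quartiles 2.48% and 11.0%).

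Outside the Txnrd1 pair, the regions stood farther from any other than the list's median. The nearest listed region was 1240 kb away for Srxn1, 1230 kb for Prdx1 and 911 kb for Txn1, against a median of 289 kb over all regions. That median includes the dense stretches. It also spans all chromosomes, and the list held 44 regions on chromosome 4 and 74 on chromosome 2, against 122 on chromosome 10. The median spacing within single chromosomes was not computed. The closest regions outside the Txnrd1 window lay 553 kb before it, with a height of 9.937, and 374 kb after it, with a height of 5.713. The Srxn1 window was flanked at 1190 kb by a region of height 25.722 and at 4280 kb by one of 10.588. For Prdx1 the flanking heights were 14.641 and 17.053, the closer at 1170 kb. For Txn1 they were 9.525 and 10.847, the closer at 860 kb. Inside the windows, the region closest to an edge was the upper one of Txnrd1, 37.0 kb from it, so the membership did not turn on the exact edges.

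Windows of this size seldom held a region. Each chromosome was divided into equal tiles as long as a gene's window, up to its last region. At least 1 region was present in 4.3% of 23679 tiles of 110 kb, the length for Srxn1 and Prdx1. The share was 4.71% of 21707 tiles of 120 kb, the length for Txn1, and 6.49% of 15326 tiles of 170 kb, the length for Txnrd1. At least 2 regions, as at Txnrd1, were present in 0.842% of the tiles of 170 kb. Against these shares, 4 of 4 gene windows held a region. Tiles include stretches without genes, and the 4 genes were chosen as known Nrf2 targets with results of these data in view, so no test was made of the difference.

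Tall regions were rarer still. A region at least as tall as the upper Txnrd1 region was present in 0.0913% of tiles of 170 kb (14 tiles). At least 2 regions reaching the height of the lower one were present in 4 tiles (0.0261%). The corresponding shares were 0.17% for Txn1 (37 tiles), 0.431% for Prdx1 (102 tiles) and 1.28% for Srxn1 (304 tiles). These shares describe the list and use the genes' own heights as the limit.

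**Figure D3:**
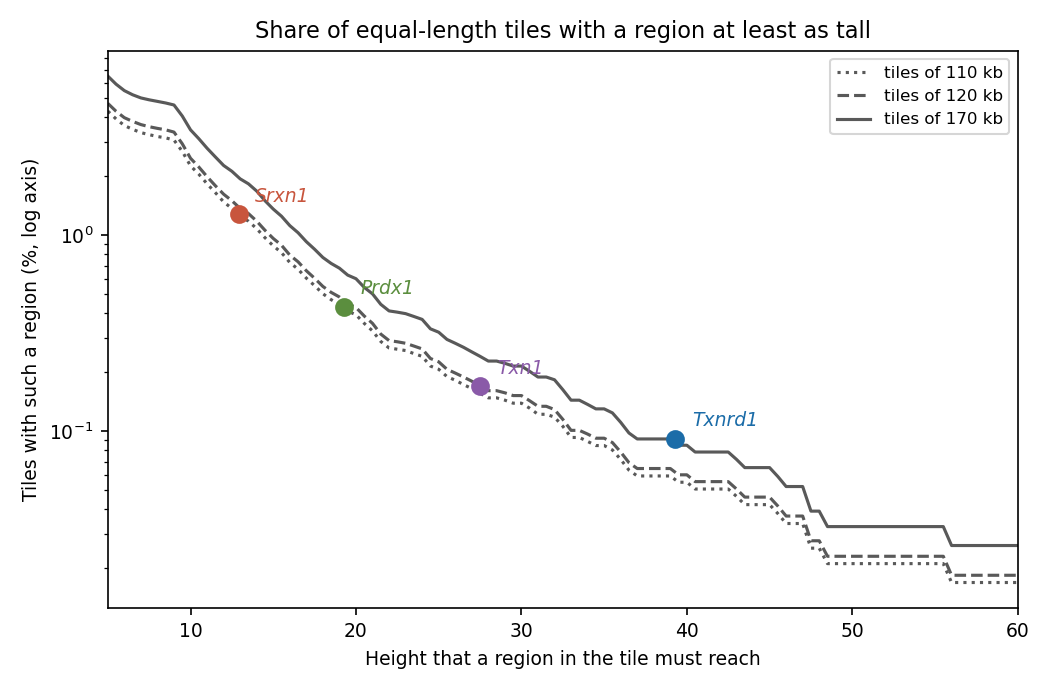
Share of tiles, on a log axis in percent, that hold a region reaching a given height (horizontal axis, deposited unit). The 3 lines are tile lengths of 110, 120 and 170 kb, and each point is a gene's tallest region on the line of its own window length, from 1.28% for Srxn1 to 0.0913% for Txnrd1.

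The element's letters were found in the promoters of 3 of the 4 genes, by different matches. RefSeq holds 6 promoters of the 4 genes among 32851 in all, and the motifs were searched on both strands of 300 bases. The core TGACNNNGC was present in 12.4% of all promoters and, counted by gene, in 14.0% of 27025 genes. Prdx1 held it from 133 to 125 bases before the start on the complementary strand, as TGACTCAGC. That full run of letters occurs in 149 promoters of the genome (0.454%), and Prdx1 was the single carrier among the 4 genes. Txnrd1 held the core before its second start, from 92 to 84 bases upstream on the complementary strand, as TGACAAAGC. The other starts of Txnrd1 had no match. Srxn1 held the core only after its start, from 29 to 37 bases downstream on the complementary strand, as TGACCTAGC.

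The heptamer TGANTCA, present in 7.81% of promoters and 8.97% of genes, was found in Srxn1 and Prdx1. Srxn1 held it at 102 to 96 and at 45 to 39 bases before the start, both as TGAGTCA, the matches capitalised above. With the letters that follow, the match nearer the start reads TGAGTCAGC. This is close to the extended TGACTCAGC but matches neither it nor the core as searched. Prdx1 held the heptamer at 237 to 231 bases before the start as TGACTCA and at 131 to 125 as TGAGTCA, the latter inside its extended element. The antioxidant response element consensus by its usual 10-letter form was present in 9.98% of promoters and 11.4% of genes and matched Prdx1 and Txnrd1 over the core matches. A match is a run of letters, not a bound site.

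**Figure D4:**
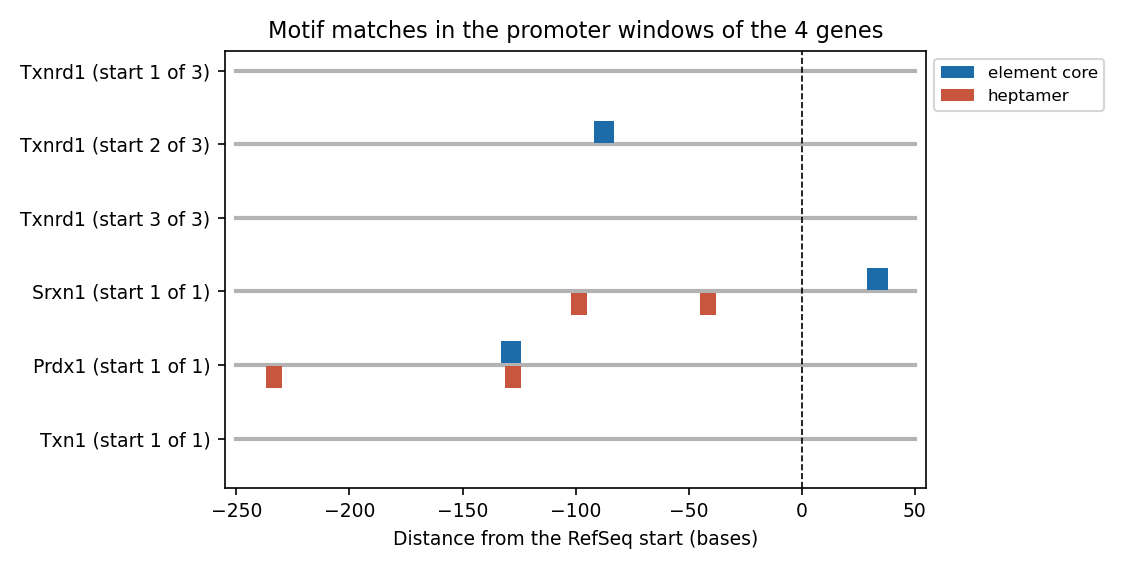
Position of motif matches in the 6 promoter windows of the 4 genes, in bases from the RefSeq start (dashed line). Blue bars mark the element core and red bars the heptamer. Prdx1, Srxn1 and the second start of Txnrd1 hold matches, and Txn1 and the other starts of Txnrd1 hold none.

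A wider list of 25 genes of the same redox system was searched in the same way, and 22 of them had a promoter (Prdx6, Txnl1 and Msra did not match). The core was present in 3 of the 22, a share close to the 14.0% of all genes with a promoter. These were Sesn2, a sestrin, Msrb2, a methionine sulfoxide reductase, and Txndc5, a disulfide isomerase of the endoplasmic reticulum. The extended element was present in none of the 22 and in 0.503% of all genes. The heptamer was present in 1, Glrx, a glutaredoxin, and in 8.97% of all genes. The 10-letter consensus matched 2, Msrb2 and Glrx2, another glutaredoxin, and 11.4% of all genes. In all, 17 of the 22 held none of these motifs. Whether the regions of the list lie near these genes was not analysed here, since no mm9 annotation was used.

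Other genes share the neighbourhoods of the 4. In the GRCm38 gene table, protein-coding neighbours within 50 kb were Hcfc2 and Eid3 for Txnrd1, and Scrt2 and Tcf15 for Srxn1. They were Akr1a1, Mmachc, Ccdc163 and Tesk2 for Prdx1, and Pakap, D630039A03Rik and Txndc8, a testis thioredoxin-like gene, for Txn1. Akr1a1 is an aldehyde reductase that uses NADPH. A region in a window was therefore not shown to act on the gene after which the window is named.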

How the data were processed

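Chromatin was crosslinked with 1% formaldehyde, sonicated and precipitated with antibodies to Nrf2, per the labels' protocols. The deposited list gives chromosome, start, end, highest position and height. The height is a signal at the highest position, per the file headers. For its unit, the aligner, the caller, thresholds and the use of the control, the answer is not given in the sources used here. Positions are on mm9, per the submitters' processing notes. Whether positions count from 0 or 1 is not stated.

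Windows were taken as given for the 4 genes, and gene ends were taken as the window less 50 kb, since no mm9 annotation was used. As a check, windows less their flanks were 70, 10, 10 and 20 kb for Txnrd1, Srxn1, Prdx1 and Txn1. The genes are 63.8, 5.85, 14.4 and 13.0 kb long in the GRCm38 table. Prdx1 is thus longer than its window less flanks, so its flanks are shorter than 50 kb in part and its assumed start is only approximate. Ranks count from the tallest region. Tiles run to the last region of each chromosome, which stands in for its length. Strands, promoters and neighbouring genes come from RefSeq (GRCm38.p6).

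All 4 genes and every region in their windows are named. Members and lists were chosen with earlier results of these data known. A planned comparison of the proteins was not run. Counting and motif search were tested on simulated data. No replicates exist, depth is unknown, and no hypothesis test was run. Alternatives were other windows, stricter lists, joined regions, shifted tiles and other motifs. Python 3.11.15, numpy 2.4.6, pandas 2.3.3, scipy 1.17.1 and matplotlib 3.10.9 were used.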

Additional observations from a re-analysis of the deposited data

How the results depend on the processing

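All 4 genes kept their regions, 5 in all, under windows shortened by 25 kb or lengthened by 50 kb at each end, with any overlap of 1 bp, with regions within 1 kb joined, among regions of height 9 or more and among the 628 tallest regions. Ranks without dense stretches or with joined regions, taken as shares, stayed within the 95% binomial interval of the main ones. The upper Txnrd1 region then ranked 12 and 15. Both settings keep most of the same list, so their shares could hardly leave that interval. Staying inside it is therefore no separate support for the ranks. A rank in 1 fixed list also has no sampling error for the interval to measure. Within their own chromosomes, the regions of Srxn1, Prdx1 and Txn1 ranked 24 of 74, 5 of 44 and 4 of 44. These shares of 32.4%, 11.4% and 9.09% lay outside that interval. The interval was computed from the whole list and leaves out the small counts of single chromosomes. It therefore cannot decide whether these shares differ from those of the whole list. On autosomes only, tiles with a region were 4.58%, 5.01% and 6.89% for 110, 120 and 170 kb, against 4.3%, 4.71% and 6.49% over all chromosomes. All of these autosomal shares lay above the 95% binomial interval of the shares over all chromosomes. Shifted tiles, which hold the same regions, stayed within it. Of the 4 genes, 3 held the core element, 1 the extended form, and 2 each the consensus, the heptamer and the core before the start. The last 3 settings were chosen after the data were seen. No paired analysis was possible because each group had 1 library and the list has no value per library. Depth is unknown, so the precision of each height is too. Heights are not shown to be corrected for the control.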

Other observations

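Among the promoters of the 4 genes, base composition differed mainly between the starts of Txnrd1. In the 250 bases before the start, G and C made up 64.0% in Txn1, 63.2% in Srxn1 and 61.6% in Prdx1, all above the upper quartile of 61.2% over all promoters, whose median was 52.4%. At Txnrd1 the second start, which holds the core element, had 59.6%, against 48.4% at the first and 47.2% at the third.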
